A study of Mus musculus with 5 samples.

Results

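Oxidative phosphorylation is carried out by 5 protein complexes of the mitochondrial inner membrane, and the set described here is the genes of their subunits. The members were the rows of the count table whose NCBI gene identifier has a mouse symbol starting with Nduf, Uqcr or Atp5, the 4 genes Sdha, Sdhb, Sdhc and Sdhd, the Cox4 to Cox8 genes, and the 13 protein genes of the mitochondrial genome. Rows typed as pseudogenes in RefSeq, 5 in number, were left out. This gave 108 members among 27179 identifiers, 95 of them encoded in the nucleus. The symbols also bring in 8 assembly factors of complex I (Ndufaf genes), which are not subunits of the finished complex. The rule does not take in Cyc1, a catalytic subunit of complex III.

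The libraries came from sorted lymphocytes of wild-type C57BL/6 mice, 3 in all. There were 3 libraries of group 3 innate lymphoid cells (ILC3), which were gated as CD45+ CD3- cells carrying a green fluorescent reporter and CD127, and 2 libraries of CD4 T cells, gated as CD45+ CD3+ CD4+ cells. The labels used here give no tissue, age or treatment for either group, and nothing ties a library to a mouse. RNA was amplified by the SMARTer Ultra Low Input kit V4, which makes full-length cDNA from small numbers of cells.

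Complex I (NADH dehydrogenase) and complex II (succinate dehydrogenase) pass electrons to ubiquinone, complex III passes them on to cytochrome c, and complex IV (cytochrome c oxidase) passes them to oxygen. Complexes I, III and IV pump protons, and complex V (ATP synthase) uses the proton gradient to make ATP. Most subunits are needed in every cell with mitochondria, but complex IV has several subunits with a tissue isoform of their own, best known from heart, skeletal muscle, lung and testis.

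Total counts ran from 15123715 to 25956023 per library. Immunoglobulin and T cell receptor segments took from 6.61% to 29.8% of them, so levels are given as CPM, the counts of a gene per 1000000 counts of a library after edgeR's TMM scaling. Il7r, the gene of CD127, was at 1264, 1025 and 1486 CPM in ILC3 and at 211 and 227 CPM in the CD4 T libraries. Cd4 was at 6.27 CPM or less in ILC3, against 142 and 89.9 CPM in the CD4 T libraries. The CD3 genes Cd3e and Cd3g overlapped between the groups although ILC3 were gated as CD3-. Cd3d did not overlap, at 110, 146 and 63.7 CPM in ILC3 and 460 and 778 CPM in CD4 T. It was called lower in ILC3 (edgeR adjusted p = 0.0162). Cd3g was at 361, 470 and 160 CPM in ILC3, against 279 and 1308 CPM. Of 5 tested markers of CD8 and gamma-delta T cells, Cd8a and Cd8b1 were called lower in ILC3 and Trdc higher. Cd8a reached 245 and 189 CPM in CD4 T replicates 1 and 2. Trdc stood at 192 to 474 CPM in ILC3. The summed level of 11 markers of plasmacytoid dendritic cells was 4869 and 4084 CPM in CD4 T, against 270 to 682 CPM in ILC3, and 10 of the 11 were called lower in ILC3. Of 11 tested myeloid markers 8 were called lower and 1 (Zbtb46) higher in ILC3, with summed levels of 1629 and 2594 CPM in CD4 T against 189 to 238 CPM. Epithelial markers summed to 23884 CPM in CD4 T replicate 2 and to at most 98.4 CPM elsewhere. In CD4 T replicate 2 Defa24 was at 21947 CPM and Lyz1 at 1878 CPM, nearly all of the sum. Epcam was at 23.1 and 26.9 CPM in CD4 T replicates 1 and 2. B and plasma cell markers summed to between 48788 and 278196 CPM in every library, with Pax5 at 0 throughout. Igkc, at 29805 to 176352 CPM, and Jchain, at 17847 to 100268 CPM, made up most of these sums. Of the 11 tested, Ighm was called lower in ILC3, at 36.6, 35.2 and 35.4 CPM against 338 and 302 CPM (edgeR adjusted p = 0.00194). The other 10 were not called. Whether the cells behind these markers contribute to the differences below was not tested, except where a value is given beside a result.

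Of the 108 members, 97 passed the filter on low counts and were tested with edgeR's quasi-likelihood test. A difference is given as log2 of ILC3 over CD4 T, and a gene was called when its p, adjusted by Benjamini and Hochberg over all 12747 genes tested, was under 0.05. By that rule 1 member, Cox6a2, was called, and it was lower in ILC3. Over all genes, 13.7% were called, 7.21% lower and 6.46% higher in ILC3. No member was called higher, while 8 were higher and 8 lower at an unadjusted p under 0.05. The share of all genes at that unadjusted p is not given here. DESeq2 called 7 members higher and 7 lower, against 15.1% and 14.6% of all genes it tested. With limma-voom 4 members were higher and 3 lower, against 10.3% and 11.0% of all genes. The median difference was -0.03 over the tested members and -0.10 over all genes tested. Members were also measured more closely than most genes: their median standard error was 0.309 on the log2 scale, against 0.679 for all genes. The standard error (SE) was back-calculated as the size of the log2 difference over the square root of the test's F statistic. The difference was under 1 in size for 86.6% of the members and 46.5% of all genes.

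The pair Cox6a1 and Cox6a2 encodes alternative forms of complex IV subunit VIa. Cox6a1 is the form found in most tissues, and Cox6a2 is the form of heart and skeletal muscle. Their coding sequences are shown because the count of each gene has to come from reads that tell the pair apart. Cox6a1 lies at chr5:115345652-115348958 and Cox6a2 at chr7:128205435-128206366 (GRCm38). The coding sequences have 339 and 294 bases, of which 288 align. They are identical at 62.5% of the aligned bases, and the longest run without a difference is 12 bases. Below, the first shows bases 40 to 339 of Cox6a1 and the second the whole of Cox6a2, 5′ to 3′ on the coding strand, from GENCODE M21 transcripts; capitals mark aligned bases that differ.
Cox6a1: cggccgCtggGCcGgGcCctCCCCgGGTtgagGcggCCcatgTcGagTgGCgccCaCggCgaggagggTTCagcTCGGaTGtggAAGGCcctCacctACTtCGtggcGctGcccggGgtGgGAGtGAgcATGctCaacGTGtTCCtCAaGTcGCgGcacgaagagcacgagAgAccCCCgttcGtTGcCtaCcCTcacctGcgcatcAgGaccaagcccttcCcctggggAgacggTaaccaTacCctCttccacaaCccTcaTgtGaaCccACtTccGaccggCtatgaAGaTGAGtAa
Cox6a2: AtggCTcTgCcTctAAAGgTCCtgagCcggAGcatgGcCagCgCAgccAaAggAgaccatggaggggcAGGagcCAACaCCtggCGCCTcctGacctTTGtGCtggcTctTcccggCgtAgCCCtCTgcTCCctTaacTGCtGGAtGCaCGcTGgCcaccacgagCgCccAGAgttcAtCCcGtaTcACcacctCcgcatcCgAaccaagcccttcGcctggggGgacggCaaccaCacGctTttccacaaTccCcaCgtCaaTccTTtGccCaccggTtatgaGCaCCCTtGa

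Cox6a2 was close to absent from ILC3 and abundant in CD4 T libraries. It had 2, 1 and 0 counts in ILC3 replicates 1 to 3, and 14344 and 7663 counts in CD4 T replicates 1 and 2. On the CPM scale this is 0.072, 0.064 and 0 against 568 and 414. No library came between the groups. The summed counts, scaled for depth, gave a level 10146 times as high in CD4 T, with a 95% interval for counting error of 3471 to 49202. The fitted log2 difference was -13.13 ± 0.657 SE (edgeR adjusted p = 0.000602), a value that depends on the prior count because ILC3 is near 0. The SE, back-calculated from the test, is narrower than the counting interval above and is not a full error of this difference. The gene was called under every alternative tried, leaving out any of the 5 libraries included. Cox6a2 passed the filter on low counts through the CD4 T libraries alone.

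Cox6a1 stood at 1012, 1134 and 976 CPM in ILC3 and at 1181 and 933 CPM in CD4 T. The groups overlapped, and the fitted log2 difference was -0.02 ± 0.285 SE (edgeR adjusted p = 0.968). Cox6a2 therefore made up 32.5% (95% exact interval 32.0 to 32.9) and 30.7% (30.2 to 31.3) of the counts of the pair in CD4 T replicates 1 and 2. In ILC3 it made up 0.00712% (0.000862 to 0.0257), 0.00564% (0.000143 to 0.0314) and 0% (0 to 0.0221). These intervals cover counting error only. In bulk samples, fewer cells that express a gene and less RNA per cell cannot be told apart. Siglech, a defining marker of plasmacytoid dendritic cells, moved with Cox6a2, at 0.036, 0.064 and 0.233 CPM in ILC3 and 744 and 813 CPM in CD4 T, and its part in the result was not tested.

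Among 4872 tested genes outside the set with at least 20 CPM on average in CD4 T, the 5 whose log2 CPM followed Cox6a2 most closely over the 5 libraries were H2-DMb1 (Pearson's r = 0.9996), Cxcl16 (0.9992), Itgb7 (0.999), Sh3bgr (0.9989) and Upb1 (0.9985). These are descriptions over 5 libraries of 2 groups. Correlation ignores the size of a difference, so a gene separated between the groups can reach a high r. Cox6a2 had 2, 1 and 0 counts in ILC3, so the order of these genes rests partly on counting noise. The candidates were also chosen by their level in CD4 T, the group where Cox6a2 is high. H2-DMb1, a chain of the chaperone that loads peptides on MHC class II, was at 24.5 to 29.3 CPM in ILC3 and at 206 and 193 CPM in CD4 T. Sh3bgr came nearest to Cox6a2 in range, with 0.072, 0.128 and 0 CPM in ILC3 and 431 and 253 CPM in CD4 T.

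**Figure D1:**
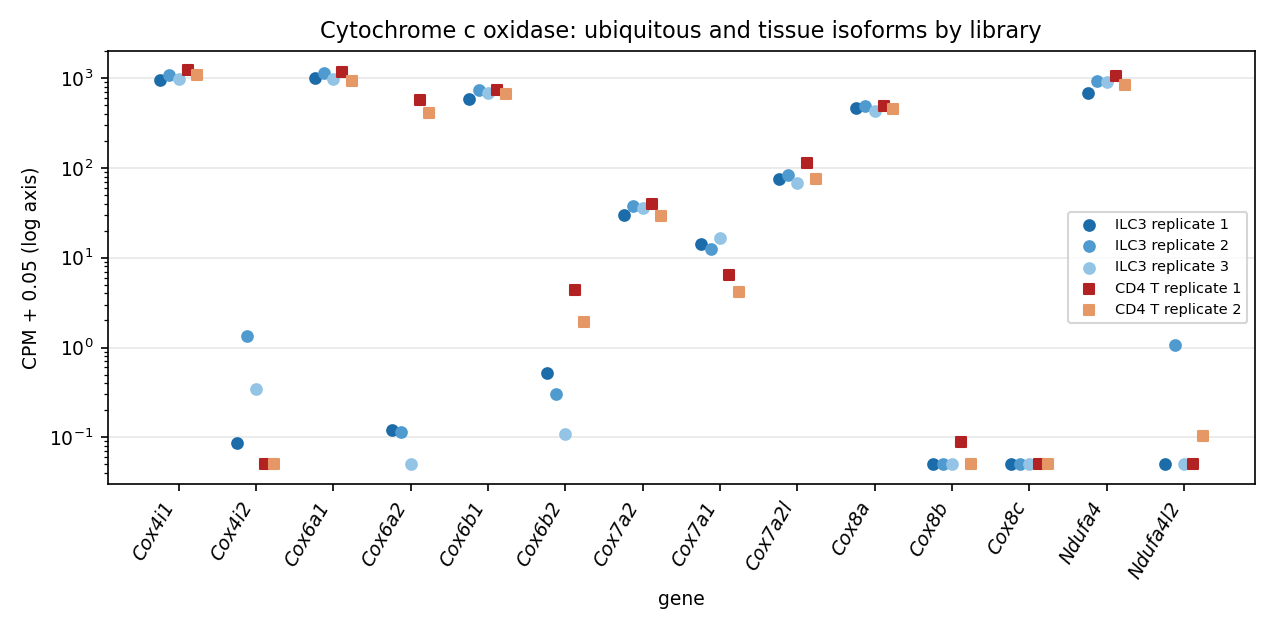
Levels of complex IV subunits that have tissue isoforms, in each of the 5 libraries, as CPM plus 0.05 on a log axis; circles are ILC3 and squares CD4 T. Cox6a2 is at 568 and 414 CPM in CD4 T and at no more than 0.072 CPM in ILC3, while Cox6a1, Cox6b1, Cox8a and Ndufa4 overlap between the groups.

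The other isoform sets did not pass the edgeR test, although DESeq2 called Cox6b2 lower and Cox7a1 higher in ILC3. Cox6b2, the testis form of subunit VIb, was at 0.468, 0.256 and 0.0584 CPM in ILC3 and at 4.35 and 1.89 CPM in CD4 T, without overlap (log2 difference -3.53 ± 1.36 SE, edgeR adjusted p = 0.124). Its widespread partner Cox6b1 had 581 to 738 CPM in ILC3 and 736 and 668 CPM in CD4 T. Cox7a1, the heart and muscle form of subunit VIIa, was at 14.3, 12.4 and 16.5 CPM in ILC3 and 6.41 and 4.11 CPM in CD4 T (log2 difference 1.45 ± 0.532 SE, edgeR adjusted p = 0.111). Its groups did not overlap either, and the difference lay in the opposite direction to that of Cox6b2 and Cox6a2. Cox7a2, the widespread form, averaged 34.4 ± 3.93 CPM (SD, n = 3) in ILC3 and 34.3 ± 7.06 CPM (SD, n = 2) in CD4 T. Cox7a2l, a relative that links complexes III and IV into supercomplexes, had 67.1 to 82.6 CPM in ILC3 and 113 and 76.0 CPM in CD4 T.

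Cox4i2, the lung form of subunit IV, was not tested, with 1, 20 and 5 counts in ILC3 and none in CD4 T. Against a floor of 3 counts over the CD4 T group this is at least 6.27-fold higher in ILC3, and 20 of the 26 counts came from ILC3 replicate 2. Its partner Cox4i1 was at 951, 1071 and 972 CPM in ILC3 and 1219 and 1096 CPM in CD4 T. Those groups did not overlap, yet the fitted log2 difference, -0.21 ± 0.272 SE (edgeR adjusted p = 0.636), was smaller than its error. Ndufa4l2, a relative of the complex IV subunit Ndufa4, had 16 counts in ILC3 replicate 2, 0 in the other ILC3 libraries, and 0 and 1 in CD4 T (ratio 11.6, 95% interval for counting error 1.8 to 485). Its ILC3 counts thus rest on a single library. Cox8a, the common form of subunit VIII, had 431 to 491 CPM in ILC3 and 492 and 454 CPM in CD4 T. The muscle form Cox8b had 1 count, in CD4 T replicate 1, and Cox8c and Cox7b2 had 0 in all libraries.

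The 11 nuclear-encoded subunits of complex IV other than the tissue isoforms and Cox7a2l form its common body, and they lay close to 0. They include Cox4i1, Cox6a1, Cox6b1, Cox7a2, Cox8a and Ndufa4, already named above. All 11 differed by 0.38 or less in size on the log2 scale, with a median of -0.03 and a lowest edgeR adjusted p of 0.483. Cox6c, the most abundant on average, was at 1054, 1260 and 1258 CPM in ILC3 and 1148 and 686 CPM in CD4 T, with overlap. Cox5b had 173 to 188 CPM in ILC3 and 179 and 180 CPM in CD4 T. Cox5a, another nuclear-encoded subunit, had 505 to 631 CPM in ILC3 and 545 and 530 CPM in CD4 T. Cox7c was low for a subunit of this complex, at 10.5 to 11.5 CPM in ILC3 and 16.4 and 10.1 CPM in CD4 T. A pseudogene, Gm10012, matches 58.3% of its transcript at 99.4% identity, so its count is uncertain. The median standard error of these genes was 0.28. Differences within that error were not detectable here, and larger ones could also go uncalled. Ndufb3 of complex I, at a log2 difference of -1.16 ± 0.333 SE, was not called (edgeR adjusted p = 0.0625).

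**Figure D2:**
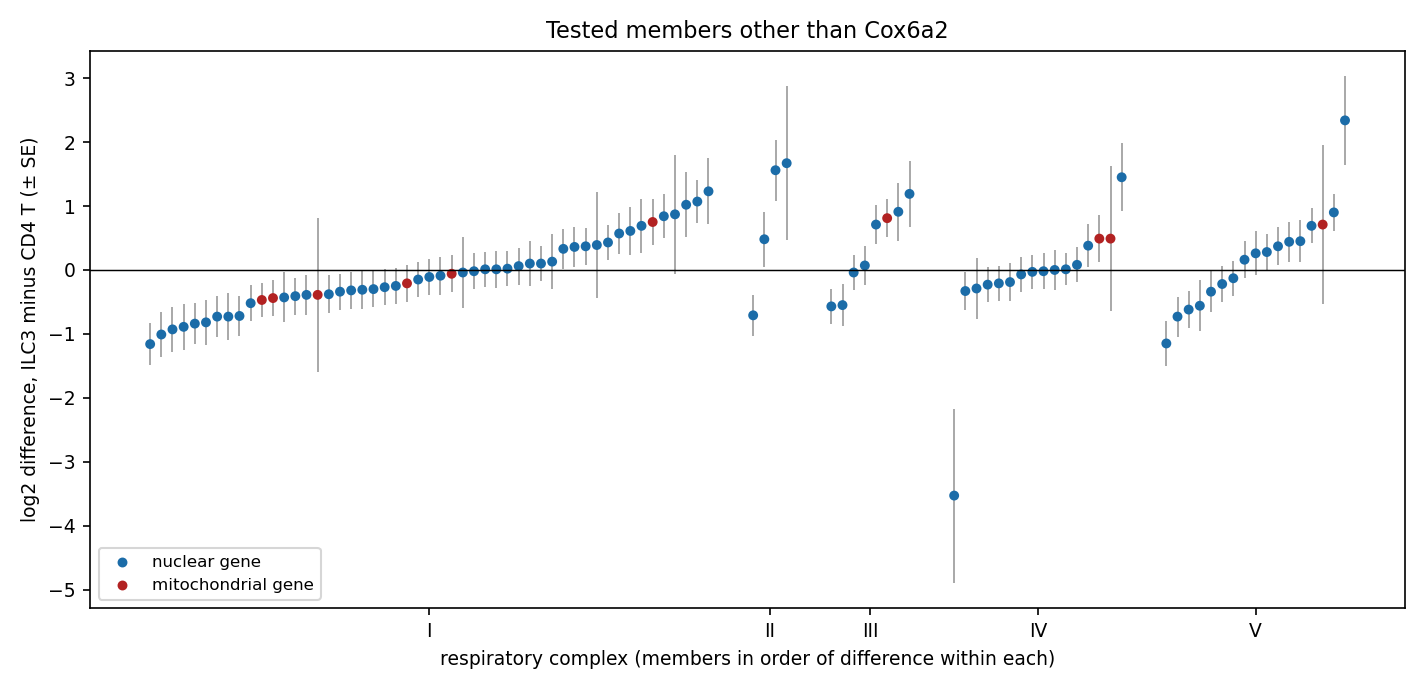
The log2 difference, ILC3 minus CD4 T, with its standard error for 96 tested members, ordered within each complex (x axis, complexes I to V); blue is nuclear, red mitochondrial. Cox6a2, at -13.13, is not drawn; most points lie between -1 and 1, Cox6b2 is lowest at -3.53 and Atp5d highest at 2.34.

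Complex I takes electrons from NADH through core subunits that carry its flavin and iron-sulphur clusters, surrounded by accessory subunits. None of its 51 tested members was called by edgeR. DESeq2 called Ndufv1 higher and Ndufa2, Ndufa3, Ndufb3 and Ndufc1 lower in ILC3, and limma-voom called Ndufb3 lower. The 29 accessory subunits had a median log2 difference of -0.31, and 20 of them were negative. The 7 nuclear-encoded core subunits had a median of 0.37, and 5 were positive. These medians are descriptions, and the difference between core and accessory subunits was not tested. The 8 assembly factors had a median of 0.23, with values from -0.73 (Ndufaf8) to 0.87 (Ndufaf1).

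Ndufb3, a membrane-arm accessory subunit, had the lowest difference of complex I. It was at 107, 146 and 112 CPM in ILC3 and 343 and 200 CPM in CD4 T (log2 difference -1.16 ± 0.333 SE, edgeR adjusted p = 0.0625). The groups did not overlap, and CD4 T replicate 1 was highest. The same held for Ndufc1, at 137 to 181 CPM in ILC3 and 435 and 224 CPM in CD4 T, and for Ndufa2, Ndufa3 and Ndufa5, at differences from -0.93 to -0.84. Ndufa1, the nuclear-encoded member of complex I with the highest mean, was at 503, 678 and 632 CPM in ILC3 and 1381 and 756 CPM in CD4 T (log2 difference -0.82 ± 0.355 SE, edgeR adjusted p = 0.160).

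At the other end of complex I, the accessory subunit Ndufa10 was at 112, 133 and 82.9 CPM in ILC3 and 22.8 and 70.6 CPM in CD4 T (log2 difference 1.23 ± 0.519 SE, edgeR adjusted p = 0.153). Ndufv1, the core subunit that binds NADH and flavin, was at 85.3, 48.6 and 65.9 CPM in ILC3 and 32.8 and 30.5 CPM in CD4 T (log2 difference 1.07 ± 0.341 SE, edgeR adjusted p = 0.078). Neither gene's groups overlapped. In Ndufv1 the CD4 T libraries were close to each other, while in Ndufa10 CD4 T replicate 1 was far below the rest. The core iron-sulphur subunit Ndufs8 showed the same spread, at 436 to 524 CPM in ILC3 and 109 and 355 CPM in CD4 T.

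Other core subunits were mostly closer to 0. Ndufs1, which carries iron-sulphur clusters, was at 46.2, 40.4 and 52.2 CPM in ILC3 and 55.5 and 58.1 CPM in CD4 T, separated but by a log2 difference of -0.30 ± 0.276 SE. Ndufv2 had 257 to 324 CPM in ILC3 and 150 and 388 CPM in CD4 T, so that both ends of its range were CD4 T libraries. Ndufs7 overlapped at 208 to 258 CPM against 151 and 210 CPM. Ndufs3 was separated, at 107 to 139 CPM in ILC3 and 47.9 and 84.6 CPM in CD4 T (log2 difference 0.84 ± 0.347 SE, edgeR adjusted p = 0.145).

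Several accessory subunits lay between the extremes. Ndufb11, of the membrane arm, was at 403, 483 and 419 CPM in ILC3 and 310 and 335 CPM in CD4 T, without overlap (log2 difference 0.43 ± 0.272 SE). Ndufs4 had 209 to 238 CPM in ILC3 and 136 and 222 CPM in CD4 T, with overlap. Ndufb8 and Ndufb9 were lower in every ILC3 library, at differences of -0.25 and -0.52. Ndufab1, the mitochondrial acyl carrier protein, was among the least abundant tested accessory subunits, at 12.7 to 17.1 CPM in ILC3 and 22.4 and 18 CPM in CD4 T. Ndufa13 had 581 to 737 CPM in ILC3 and 932 and 653 CPM in CD4 T, and 30% of its exon length is shared with Tssk6 on the opposite strand.

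Ndufb4 has further copies in the genome that carry the same name. Ndufb4 itself had 31.7 to 40.6 CPM in ILC3 and 51.4 and 43.2 CPM in CD4 T. Ndufb4b was at 3.42, 3.58 and 4.09 CPM in ILC3 and 3.21 and 2.43 CPM in CD4 T. Ndufb4c, a protein-coding gene in RefSeq and a processed pseudogene in GENCODE M21, had 10, 2 and 4 counts in ILC3, 14 and 6 in the CD4 T libraries, and was not tested. Since Ndufb4c is identical to Ndufb4 over 40.2% of the transcript, the split of counts between them is uncertain.

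Of the assembly factors, which build complex I and are not part of it, Ndufaf1 varied most between CD4 T libraries. It was at 27.4, 15.3 and 25.4 CPM in ILC3 and 1.94 and 22.9 CPM in CD4 T (log2 difference 0.87 ± 0.927 SE). Ndufaf8 was at 109, 119 and 107 CPM in ILC3 and 236 and 132 CPM in CD4 T, without overlap (log2 difference -0.73 ± 0.321 SE, edgeR adjusted p = 0.168). Ndufaf4 overlapped, at 60.3 to 68.2 CPM against 52.8 and 65.8 CPM. Ndufaf2 overlapped too, and 65.6% of its exon length is shared with a neighbour on the opposite strand.

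Complex II links the tricarboxylic acid cycle to the chain and has 4 subunits. Sdhb, its iron-sulphur subunit and the most abundant, was at 622, 608 and 584 CPM in ILC3 and 242 and 625 CPM in CD4 T, with overlap. Sdhc, a membrane anchor, was at 180, 168 and 138 CPM in ILC3 and 28.8 and 81.7 CPM in CD4 T (log2 difference 1.56 ± 0.479 SE, edgeR adjusted p = 0.072). Sdhd, the other anchor, was at 4.48 to 5.26 CPM in ILC3 and 0.237 and 2.76 CPM in CD4 T (log2 difference 1.67 ± 1.2 SE, edgeR adjusted p = 0.381). Both anchors were separated between the groups. The flavin subunit Sdha differed in the other direction, at 58.6 to 84.3 CPM in ILC3 and 136 and 88.9 CPM in CD4 T (log2 difference -0.71 ± 0.319 SE, edgeR adjusted p = 0.175).

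In complex III the nuclear-encoded member with the highest mean was Uqcrh, the hinge protein, at 541, 709 and 679 CPM in ILC3 and 713 and 515 CPM in CD4 T, with overlap. Uqcrc1, a core protein of the matrix side, was at 296, 235 and 177 CPM in ILC3 and 50.8 and 156 CPM in CD4 T (log2 difference 1.19 ± 0.521 SE, edgeR adjusted p = 0.164). Its partner Uqcrc2 and the Rieske iron-sulphur protein Uqcrfs1 were at 0.71 and 0.91 on the log2 scale and were also separated. The small subunit Uqcr10 was at 344, 413 and 409 CPM in ILC3 and 624 and 531 CPM in CD4 T (log2 difference -0.57 ± 0.274 SE, edgeR adjusted p = 0.198). Uqcrb, at 248 to 280 CPM in ILC3 and 305 and 244 CPM in CD4 T, overlapped. Uqcrq was lower in every ILC3 library, at 451 to 537 CPM against 934 and 547 CPM, and the gap to CD4 T replicate 2 was small. Uqcr11 was listed with at most 2 counts in any library and was not tested. A pseudogene, Gm11628, matches 38.4% of its transcript at 95.3% identity. The reason for the low count was not tested, so it cannot be read as absence of expression.

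Complex V has an F1 part, which makes ATP, and an Fo part with stalks in the membrane. Atp5d, the delta subunit of the F1 central stalk, had the highest difference of the tested members. It was at 145, 125 and 105 CPM in ILC3 and 7.88 and 41.7 CPM in CD4 T, without overlap (log2 difference 2.34 ± 0.693 SE, edgeR adjusted p = 0.0665). CD4 T replicate 1 was well below replicate 2. Without that library the difference was 1.59, and without CD4 T replicate 2 it was 4.0 and passed the test (edgeR adjusted p = 0.00518, against 0.00225 to 0.141 over the alternatives). The alpha subunit gene Atp5a1 was at 326, 250 and 259 CPM in ILC3 and 243 and 216 CPM in CD4 T. The catalytic beta subunit gene Atp5b was at 365, 286 and 266 CPM in ILC3 and 189 and 263 CPM in CD4 T. Both were separated by a narrow margin, with log2 differences of 0.28 ± 0.28 SE and 0.44 ± 0.309 SE. Atp5c1, the gamma subunit of the rotor, had 440 to 547 CPM in ILC3 and 280 and 457 CPM in CD4 T, with overlap. Atp5e, the epsilon subunit and the smallest of F1, was on the other side, at 269, 344 and 292 CPM in ILC3 and 609 and 393 CPM in CD4 T (log2 difference -0.73 ± 0.312 SE, edgeR adjusted p = 0.156).

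Atp5k, a small membrane subunit, was at 121, 153 and 144 CPM in ILC3 and 410 and 209 CPM in CD4 T (log2 difference -1.15 ± 0.353 SE, edgeR adjusted p = 0.0712). Atp5md, another small subunit of the membrane part, was at 338, 368 and 392 CPM in ILC3 and 227 and 165 CPM in CD4 T (log2 difference 0.90 ± 0.293 SE, edgeR adjusted p = 0.0826). Neither gene overlapped between the groups. Atp5pb, the b subunit of the outer stalk, was at 471, 513 and 468 CPM in ILC3 and 271 and 330 CPM in CD4 T (log2 difference 0.69 ± 0.276 SE, edgeR adjusted p = 0.137). It too was separated, and the CD4 T libraries were close to each other. Atp5j2, a membrane subunit, had 245 to 292 CPM in ILC3 and 483 and 351 CPM in CD4 T, also separated but in the other direction (log2 difference -0.62 ± 0.285 SE). Atp5o, which caps the outer stalk, had 339 to 405 CPM in ILC3 and 237 and 344 CPM in CD4 T, with overlap. Its count is uncertain because 47.9% of its exon length is shared with other annotated entries. These include a same-strand entry also named Atp5o, and genes on the opposite strand. Atp5j, the stalk subunit with the highest mean of complex V, had 681 to 818 CPM in ILC3 and 867 and 755 CPM in CD4 T.

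The c subunit, which forms the rotating ring of Fo, is encoded by 3 genes whose mature protein is the same. Atp5g3 carried nearly all of its counts, at 603, 570 and 518 CPM in ILC3 and 433 and 577 CPM in CD4 T. Atp5g1 was at 21.8, 31.3 and 28.7 CPM in ILC3 and 21.3 and 24.2 CPM in CD4 T. Both overlapped between the groups. Atp5g2 had 14, 9 and 7 counts in ILC3, 2 and 7 in the CD4 T libraries, and was not tested. A processed pseudogene, Gm10175, is identical to Atp5g2 over 88.2% of its transcript, so its count is uncertain.

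The 13 mitochondrial protein genes fell into a highly counted and a barely counted set. The genes mt-Nd1, mt-Nd2, mt-Nd4, mt-Nd5, mt-Nd6, mt-Cytb and mt-Co1 held nearly all of the counts. The genes mt-Co2, mt-Co3, mt-Atp6, mt-Atp8 and mt-Nd3 had at most 40 counts in a library, and mt-Nd4l had 0 in all 5. A stretch of chromosome 1 (24612407 to 24615565, GRCm38) carries annotated copies of mt-Nd4l, mt-Nd3, mt-Co3, mt-Atp6 and mt-Co2 with 99.7% to 100% identity over at least 99.0% of the gene. An adjoining copy (24611535 to 24612410) covers 63.6% of mt-Nd4, which was counted well. The part of these copies in the low counts was not tested, and the levels of the barely counted genes cannot be read as expression.

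**Figure D3:**
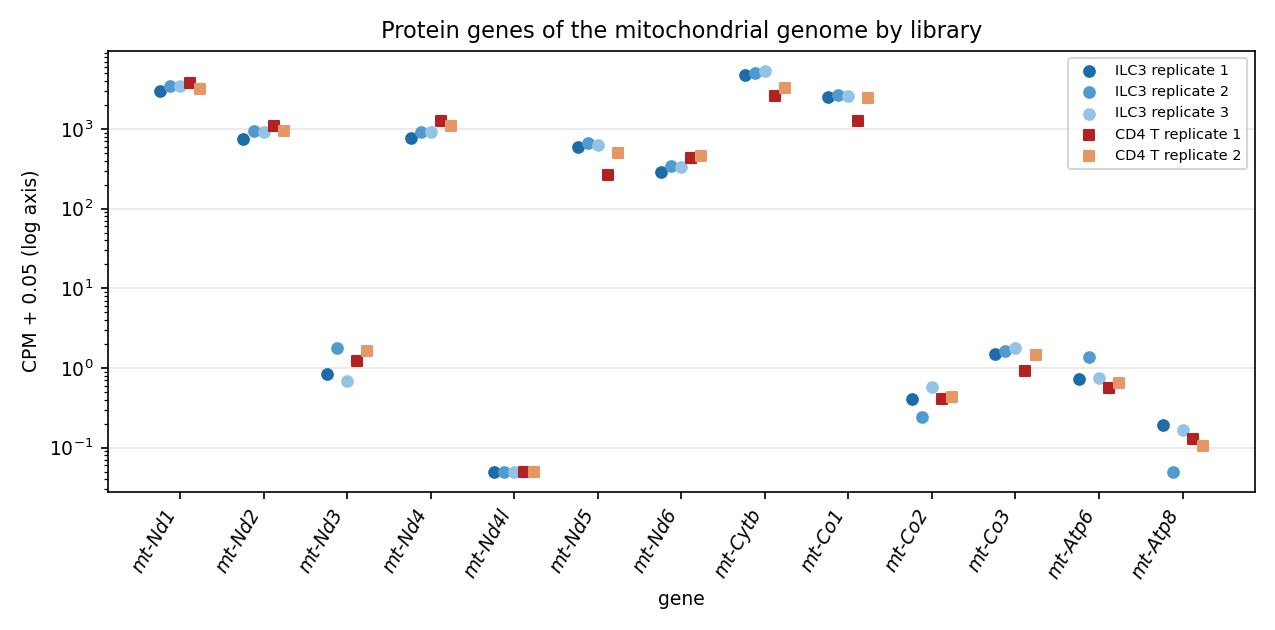
Levels of the 13 protein genes of the mitochondrial genome in each library, as CPM plus 0.05 on a log axis; circles are ILC3 and squares CD4 T. The 7 well-counted genes lie above 200 CPM, mt-Cytb is higher in every ILC3 library than in CD4 T, and mt-Nd4l is at 0 throughout.

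None of the 10 tested mitochondrial members was called by edgeR, while DESeq2 and limma-voom both called mt-Cytb higher in ILC3. The median log2 difference of the 10 was 0.21. That of the 7 well-counted genes, a choice made after their counts were seen, was -0.06. The gene mt-Cytb encodes cytochrome b of complex III and had the highest mean CPM of the set. It was at 4793, 5105 and 5370 CPM in ILC3 and 2561 and 3259 CPM in CD4 T, without overlap (log2 difference 0.81 ± 0.302 SE, edgeR adjusted p = 0.117). The complex I gene mt-Nd5 was also separated, at 597 to 671 CPM in ILC3 and 261 and 493 CPM in CD4 T (log2 difference 0.75 ± 0.356 SE). The catalytic subunit gene of complex IV, mt-Co1, was at 2536, 2665 and 2604 CPM in ILC3 and 1256 and 2437 CPM in CD4 T, so that CD4 T replicate 2 was close to ILC3 and replicate 1 was not.

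The other complex I genes lay nearer to 0 or on the other side of it. The most abundant, mt-Nd1, was at 2996, 3486 and 3419 CPM in ILC3 and 3733 and 3145 CPM in CD4 T, with overlap. The gene mt-Nd2 was at 742, 931 and 927 CPM in ILC3 and 1077 and 929 CPM in CD4 T, and mt-Nd4 at 776, 904 and 928 against 1270 and 1081 CPM. The gene mt-Nd6 lies on the opposite strand to the rest and was at 285, 343 and 329 CPM in ILC3 and 426 and 454 CPM in CD4 T. Both mt-Nd4 and mt-Nd6 were lower in every ILC3 library, at log2 differences of -0.44 and -0.47. Its annotated overlap with the antisense gene mt-Nd5 is 2.7% of its length.

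Transcript length was taken from a single GENCODE M21 transcript per gene, the longest of those annotated as principal. It may not be the form expressed. Per kilobase of transcript, mt-Cytb had the highest mean level in ILC3, 4449 CPM per kilobase, against 2544 in CD4 T. In CD4 T the highest was mt-Nd1, with 3594 CPM per kilobase against 3449 in ILC3. The highest nuclear-encoded member on this scale in ILC3 was Cox6a1, with 1823 CPM per kilobase, against 1851 in CD4 T. In CD4 T it was Ndufa1, with 2551 CPM per kilobase against 1443 in ILC3. Cox6a2 reached 722 CPM per kilobase in CD4 T.

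Summed over all nuclear-encoded members, the level was 23098, 26892 and 24813 CPM in ILC3 and 29793 and 25021 CPM in CD4 T. The mitochondrial members summed to 12729, 14110 and 14210 CPM in ILC3 and 10588 and 11802 CPM in CD4 T. The nuclear sums overlapped, and the mitochondrial sums did not. The mitochondrial sums include mt-Cytb, at 4793 to 5370 CPM in ILC3 and 2561 and 3259 CPM in CD4 T. The gap between the groups was wider for mt-Cytb alone than for the sums. As a share of raw counts the order differed. Nuclear members held 2.47%, 2.00% and 2.03% of the ILC3 libraries, against 3.73% and 3.06% of the CD4 T libraries, and mitochondrial members 1.36%, 1.05% and 1.16% against 1.33% and 1.44%. With library size alone as the scale, 77 of the 97 tested members were negative, against 51 with TMM, and the median of all genes moved to -0.59. The median of the nuclear members on that scale was -0.54. Mitochondrial ribosomal RNA, outside the set, took 0.237% to 0.301% of counts in ILC3 and 1.54% and 0.587% in CD4 T replicates 1 and 2.

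The groups did not overlap in 51 of the 97 tested members (52.6%), 24 higher and 27 lower in ILC3. Over all genes the share was 55.0%, so the members were near the background. Within the set, much of the spread lay between the CD4 T libraries. Replicate 1 was the highest of the 5 libraries in 48 members (49.5%) and the lowest in 33 (34.0%), against 33.2% and 29.9% of all genes. Pearson correlations of log2 CPM over the members were 0.991 to 0.993 among ILC3 libraries and 0.953 between the CD4 T libraries. CD4 T replicate 2 correlated with the ILC3 libraries at 0.971 to 0.979 and replicate 1 at 0.898 to 0.914. These correlations are across genes measured in the same libraries, and genes are not independent replicates.

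The gap between the CD4 T libraries followed transcript length. Cox6a2 aside, 85 tested nuclear-encoded members had an annotated length, that of the longest principal transcript. The form expressed in these cells may differ in length. In the shortest 29 (371 to 682 bases), CD4 T replicate 1 was the highest library in 24 and the lowest in none. The median log2 difference of replicate 1 from replicate 2 there was 0.42. In the longest 28 (1249 to 4715 bases) replicate 1 was the highest in 8 and the lowest in 16, with a median of -0.23. The difference between cell types ran the other way, with a median of -0.22 in the shortest and 0.34 in the longest members.

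Across 84 of these genes, leaving out Sdhd for having fewer than 10 counts in a CD4 T library, the difference between the CD4 T libraries correlated with log10 length at r = -0.381 (Spearman's rho -0.466), and the difference between cell types at r = 0.351 (rho 0.414). The same libraries enter both, so the values are not independent. Over 10056 other tested genes the correlations were 0.186 and -0.0802, of opposite sign. The part of transcript length or of CD4 T replicate 1 in the members' differences was not tested beyond the fits without a library. Without CD4 T replicate 1, the edgeR test called 0 members higher and 1 (Cox6a2) lower, where 3.65% and 2.22% of all genes were called. Without replicate 2 it called 12 higher and 11 lower, where 12.5% and 7.02% of all genes were called. In both fits the remaining CD4 T library is assumed to vary as ILC3 does.

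**Figure D4:**
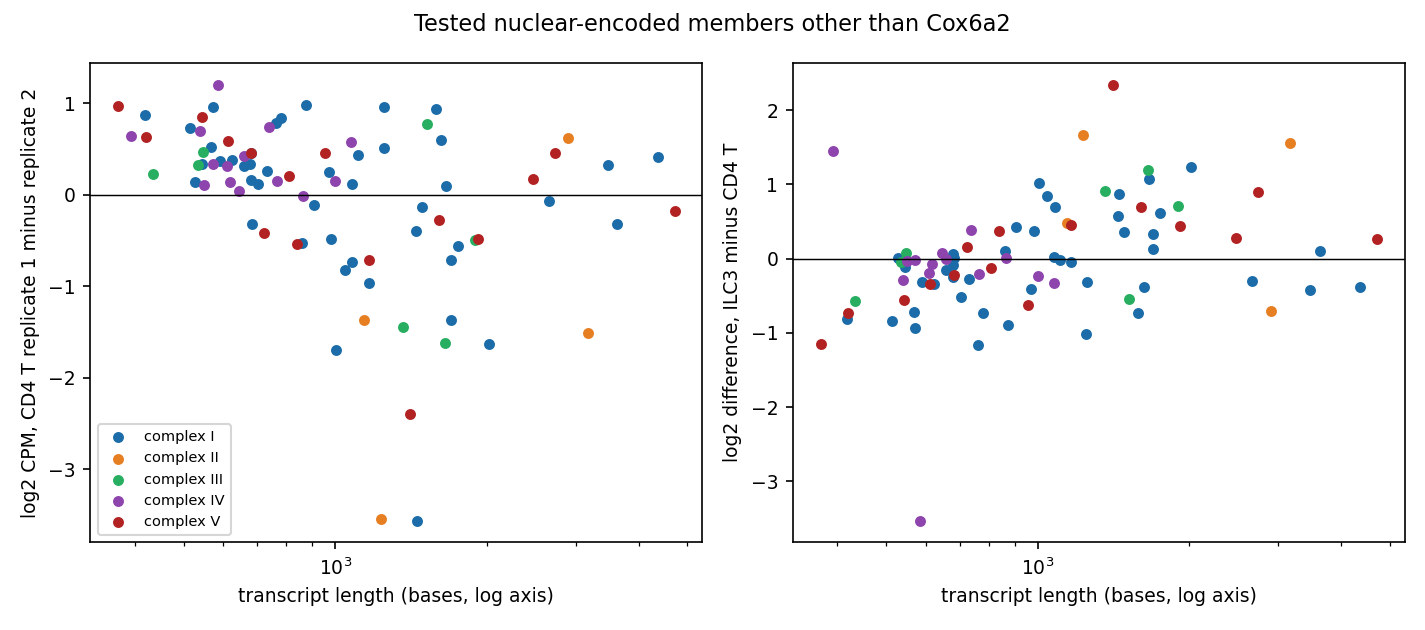
The log2 CPM difference between the CD4 T libraries (left) and between ILC3 and CD4 T (right) against transcript length on a log axis, for 85 tested nuclear-encoded members other than Cox6a2, coloured by complex. Short members sit mostly above 0 on the left and below 0 on the right; r is -0.381 and 0.351 over 84 of the points, without Sdhd.

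The genes around the chain were taken from 5 lists. Each list's calls are to be read beside the 6.46% of all genes called higher and 7.21% called lower. Of 20 tested electron carriers and ubiquinone genes, 1 was called higher and none lower in ILC3. It was Coq10b, which encodes a ubiquinone-binding protein, at 1213, 1552 and 1686 CPM in ILC3 and 148 and 395 CPM in CD4 T (log2 difference 2.45 ± 0.502 SE, edgeR adjusted p = 0.0271). Among 37 assembly factors, 1 was called higher, the complex II factor Sdhaf1 (log2 1.84, edgeR adjusted p = 0.0367), and none lower. Among 22 genes of mitochondrial transcription and its regulators, 1 was called higher, Gabpb1, which encodes a subunit of a factor that binds promoters of respiratory genes (log2 2.27, edgeR adjusted p = 0.0457).

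Of 23 tested genes of the tricarboxylic acid cycle and pyruvate dehydrogenase, 2 were called higher and 1 lower. Those higher were Idh3a (log2 1.73, edgeR adjusted p = 0.0329) and Sucla2 (log2 1.58, edgeR adjusted p = 0.0452). Citrate synthase, Cs, was lower, at 25.2, 20.7 and 14.8 CPM in ILC3 and 61.5 and 46.2 CPM in CD4 T (log2 difference -1.41 ± 0.351 SE, edgeR adjusted p = 0.0458). Of 20 genes of supercomplexes, cristae and inner membrane transport, 2 were called higher, the channel gene Vdac3 (log2 1.66) and the haem lyase gene Hccs (log2 1.30), and none lower. The medians of the 5 lists were 0.89, 0.10, -0.04, 0.65 and 0.64 in this order, beside -0.10 for all genes. All 8 calls were lost when any 1 ILC3 library was left out. Those fits also called fewer genes in total, 269 to 323 higher and 346 to 473 lower, against 824 and 919 with all libraries.

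Promoters, taken as 250 bases before to 50 after the start in RefSeq (GRCm38.p6), were found for 77 of the 95 nuclear-encoded members. They were searched on both strands for motifs of factors known to drive respiratory genes. The NRF1 motif GCGCANGCG was present in 22 members (28.6%), against 15.1% of 9666 other tested genes. The ETS motif CCGGAAG, which nuclear respiratory factor 2 binds, was in 19 (24.7%, against 20.7%), and the YY1 motif AAGATGG in 12 (15.6%, against 8.45%). CCAAT was in 44.2% against 42.9%, and TATAAA in 10.4% against 9.36%. Matches of different motifs may overlap, and a match is a description of the sequence only.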

How the data were processed

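RNA of 3 ILC3 and 2 CD4 T libraries was sequenced. The values are whole-number counts per gene deposited by the authors without normalization. The submitters' processing notes name STAR 2.3.0, CASAVA 1.8.2 and mm10. Which counting tool, annotation and strand setting were used is not given in the sources used. Of 27179 identifiers, 25275 matched RefSeq GRCm38.p6.

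Differences were tested with edgeR 4.0.16 under R 4.3.3 (glmQLFit and glmQLFTest, TMM scaling, filterByExpr), with 3 residual degrees of freedom, and the fit was tested on simulated data. DESeq2 1.42.0, limma 3.58.1, other scalings and filters, a replicate block and each library left out served as alternatives. Nothing ties libraries to mice, so p-values measure the spread between libraries, which may be technical. Copies were sought with BLAST 2.17.0 (at least 98% identity over 80% of a transcript). Some members share exons with other annotated entries, among them Ndufaf2 (65.6% of its exon length), Atp5o (47.9%), Ndufb6 (39.0%) and Ndufa13 (30%). For Atp5o these entries include another of the same name. The counts of these members are uncertain.

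The members and lists were chosen with earlier results of these data known. Values were given for called members, the mitochondrial genes, isoform sets, the most abundant and most different members of each complex, and up to 3 called genes of each other list. Some genes are not reported here.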

Additional observations from a re-analysis of the deposited data

How the results depend on the processing

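The counts of members called depended on the test and on the CD4 T libraries. Lower in ILC3, 1 member was called by the edgeR test, 4 with library size alone and 2 without a filter on low counts. DESeq2 called 7 lower (Atp5k, Cox6a2, Cox6b2, Ndufa2, Ndufa3, Ndufb3 and Ndufc1) and limma-voom 3 (Atp5k, Cox6a2 and Ndufb3). Over all genes these fits called 919, 1491, 1378, 1858 and 1402 lower, in this order. Higher in ILC3, 0 members were called by the edgeR test (8 at an unadjusted p under 0.05) and 2 without the filter. DESeq2 called 7 higher (Atp5d, Atp5md, Atp5pb, Cox7a1, Ndufv1, Sdhc and mt-Cytb) and limma-voom 4 (Atp5d, Atp5md, Sdhc and mt-Cytb). Over all genes these fits called 824, 1250, 1914 and 1317 higher, in this order. With each library left out in turn, 1 to 11 members were called lower and 0 to 12 higher; the upper ends came from the fit without CD4 T replicate 2. Cox6a2 was among the lower calls in all 16 alternatives, at log2 differences from -13.70 to -12.68.

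With the replicate number as a block, 0 members were called higher and 1 lower, and over all genes 215 higher and 305 lower. Deviations of same-numbered libraries correlated at r = -0.0235 and -0.0338, but with 2 CD4 T libraries these deviations mirror each other, so the check decides nothing. The labels tie the numbers to no mouse, and the libraries are treated as sharing only a number. That fit has 1 residual degree of freedom.

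The median difference of the nuclear-encoded members stayed between -0.14 and 0.02 under all alternatives other than library size alone (-0.54). That of the mitochondrial members was -0.29 with library size alone, -0.07 with a filter of 1 CPM in 2 libraries, and positive otherwise. It includes the barely counted genes; without them it was -0.06 with TMM scaling. Depth limits the members with few counts, such as Sdhd, whose standard error was 1.2.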
